A study of Caenorhabditis elegans with 2 samples.

Results

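Histone genes encode the proteins around which DNA is wound into chromatin. The genes described here were the protein-coding genes of Ensembl release 115 (WBcel235, the same assembly as ce11) whose symbol is his- and a number, which gave 72 of 19973 protein-coding genes in Caenorhabditis elegans. The annotation gave only 50 distinct symbols to these 72 gene identifiers, so the genes were counted by identifier and named by their RefSeq symbols, which were distinct for all 72. Binding of LIN-39, a Hox transcription factor of the mid-body, was mapped by chromatin immunoprecipitation and sequencing (ChIP-seq) in whole larvae of the first stage (L1), with both sexes pooled. All larvae were of strain OP18, with the background mutation unc-119(ed3) III and the transgene wgIs18, which carries an eGFP-tagged lin-39. The promoter that drives the transgene is not given in the sources used here. There was 1 group of 2 biological replicates and no second condition, so no difference between conditions can be given, and whole larvae do not show which cells a region was bound in.

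In the nucleosome, H2A, H2B, H3 and H4 form the protein core, and the linker histone H1 sits on the DNA between cores. Most animal histone genes are copied many times and used while DNA is replicated, and some stand in pairs that point away from each other. The replacement histone H3.3 can be put into chromatin outside replication. Hox proteins are known to bind short AT-rich sites alone and composite sites together with Pbx-type partners.

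Each gene was given a start window, from 2000 bp upstream to 500 bp downstream of its annotated start. For 65 of the histone genes the annotated start was the first base of the coding sequence. For the other 7 it lay before the coding sequence, from 4 bp at his-74 to 29 bp at his-37 and 45 bp at his-24. Distances to a start, stretches between starts and promoters were measured from the annotated start. They therefore do not refer to the same kind of position at all histone genes. A summit is the position of the highest signal in a region, as the submitters' lists give it. The optimal list, made from both replicates together, held 1488 regions with signals from 50.03 to 607.5 and a median of 81.3. The ranked lists of both replicates together (pooled), of replicate 1 and of replicate 2 held 30000 regions each and were long enough to include weak ones, with median signals of 18.8, 13.02 and 8.85. The signal is the submitters' own score, and rank 1 is the strongest region of a list. The optimal and pooled lists had the same highest signal, and each histone peak described below had the same signal and rank in both. Each replicate list has a scale of its own. Read numbers are not part of the lists, so depth is unknown and no counting interval can be given.

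An optimal summit lay in the start window of 12 of the 72 histone genes (16.7%), where 8.28% of all protein-coding genes had one. These 12 genes shared 6 peaks, because neighbouring histone genes lie close together. When each peak was given only to its nearest protein-coding start, 6 histone genes (8.33%) remained, where 5.14% of all genes did. By type, the 12 were 4 of 16 H4 genes (his-31, his-37, his-60 and his-67) and 3 of 17 H2A genes (his-35, his-61 and his-68). They were also 3 of 15 H3 genes (his-32, his-42 and his-59), 1 of 16 H2B genes (his-34) and the linker histone H1 gene his-24. None of the 5 H3.3-type genes had an optimal summit, a small number beside the 8.28% of all genes. As types share the 6 peaks, these counts do not rank them. Both peaks on chromosome IV lay between an H3 and an H4 start that point apart, and the sequences of these stretches are shown next.

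The stretch between his-60 (H4, to the left) and his-59 (H3, to the right) is 256 bp long, at chrIV:7487993-7488248. The stretch between his-31 (H4, to the left) and his-32 (H3, to the right) is 321 bp long, of which the central 300 are given, at chrIV:8333995-8334294. Both are from the RefSeq sequence of WBcel235, plus strand, and are shown because 1 optimal summit lay within each. Capitals mark matches, on either strand, to TGATNNAT and TAATTA (Hox-type sites), to TATAAA (the TATA box), to CCAAT (the CCAAT box) and to the letters GGGACACA, which are taken up further on.
his-60 to his-59: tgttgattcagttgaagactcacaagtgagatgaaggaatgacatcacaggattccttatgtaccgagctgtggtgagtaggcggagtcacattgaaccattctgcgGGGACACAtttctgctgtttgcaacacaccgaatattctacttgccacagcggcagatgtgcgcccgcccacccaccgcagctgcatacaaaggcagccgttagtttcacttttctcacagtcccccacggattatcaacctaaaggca
his-31 to his-32: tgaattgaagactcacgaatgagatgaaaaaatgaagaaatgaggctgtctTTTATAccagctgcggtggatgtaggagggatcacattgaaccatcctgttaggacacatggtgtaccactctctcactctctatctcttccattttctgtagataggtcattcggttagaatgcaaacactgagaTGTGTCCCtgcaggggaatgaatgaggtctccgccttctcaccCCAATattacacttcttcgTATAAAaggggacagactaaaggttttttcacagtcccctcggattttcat

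The peak between his-31 and his-32 (chrIV:8333943-8334282) had an optimal signal of 116.9, rank 379 of 1488. Its signal was 58.2 in replicate 1 (rank 584 of 30000) and 53.9 in replicate 2 (rank 310). The summit lay 130 bp upstream of his-31 and 192 bp upstream of his-32, so it was nearer to the H4 start. It also fell in the window of his-34, an H2B gene whose start was 1859 bp away on the far side of his-32 and his-33. The replicate summits lay 0 bp and 35 bp from the optimal summit, all within the stretch shown.

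The peak between his-60 and his-59 (chrIV:7487942-7488281) was weaker, with an optimal signal of 68.4 and rank 950. Its signal was 35.4 in replicate 1 (rank 1293) and 28.6 in replicate 2 (rank 1053). Again the summit was nearer to the H4 start, 120 bp upstream of his-60 against 137 bp upstream of his-59. The H2A gene his-61, 1895 bp away, had the same summit in its window. In replicate 1 the summit lay 44 bp to the side, so these distances do not separate the starts beyond the shift between replicates.

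Next come the peaks upstream of single starts. The whole peak upstream of the H4 gene his-37 (92 bp, chrV:9546957-9547048, plus strand) and the summit region of the H1 gene his-24 up to its start (163 bp, chrX:14489931-14490093, plus strand) are shown because they share a run of 20 identical bases, which starts 1 base before the capitals TGTGTCCC. The summit region of the H3 gene his-42 (201 bp, chrII:13829082-13829282, minus strand, in the direction of the gene) is shown because it lacks that run. Capitals mark the same motifs as before, and the sequences are from RefSeq, WBcel235.
his-37: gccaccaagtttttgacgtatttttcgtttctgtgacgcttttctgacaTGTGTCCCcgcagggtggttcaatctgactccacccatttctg
his-24: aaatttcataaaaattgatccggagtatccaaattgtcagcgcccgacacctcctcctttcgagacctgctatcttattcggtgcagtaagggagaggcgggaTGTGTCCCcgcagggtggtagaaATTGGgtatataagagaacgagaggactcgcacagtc
his-42: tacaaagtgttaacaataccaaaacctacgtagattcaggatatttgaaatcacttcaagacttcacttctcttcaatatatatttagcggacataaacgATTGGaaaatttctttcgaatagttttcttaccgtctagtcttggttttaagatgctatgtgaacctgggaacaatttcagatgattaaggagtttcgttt

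The his-37 peak was the strongest at any histone gene, with an optimal signal of 180.3 and rank 149. Replicate 1 gave it a signal of 110.1 (rank 144) and replicate 2 a signal of 69.9 (rank 181), with summits 1 bp and 4 bp from the optimal summit. The summit lay 83 bp upstream of his-37. It also fell in the window of his-35, 1734 bp upstream of its start. The H2B gene his-41 and the protein-coding gene C50F4.6 stand between that start and the summit. his-35 encodes an H2A protein that differs at 1 of 127 residues from the form that 15 other H2A genes share.

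The linker histone gene his-24 had the weakest of the 6 peaks, at chrX:14489861-14490200. Its optimal signal was 55.3 (rank 1271), with 25.2 in replicate 1 (rank 2515) and 31.9 in replicate 2 (rank 860). The summit lay 63 bp upstream of his-24 and inside an exon of the noncoding RNA gene M163.19, whose start was 117 bp away. The replicates differed in rank for this peak: it was among the 1488 strongest regions of replicate 2 and not among those of replicate 1.

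At his-42, an H3 gene at the edge of the 13-gene group on chromosome II, the peak (chrII:13829012-13829351) had an optimal signal of 63.0 and rank 1083. Replicate 1 gave 33.6 (rank 1436) and replicate 2 gave 25.7 (rank 1264). Here the summit was farther from the histone start than at the other peaks, at 485 bp upstream. Other starts were close or in reach: the noncoding RNA gene R05D7.8 at 104 bp, the snRNA gene C47F8.9 at 309 bp and the protein-coding gene F08G2.4 at 1420 bp. Which of these starts the peak belongs to was not tested. The bases within 100 bp of this summit were 32.8% G or C, against 44.3% to 51.2% at the other 5.

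**Figure D1:**
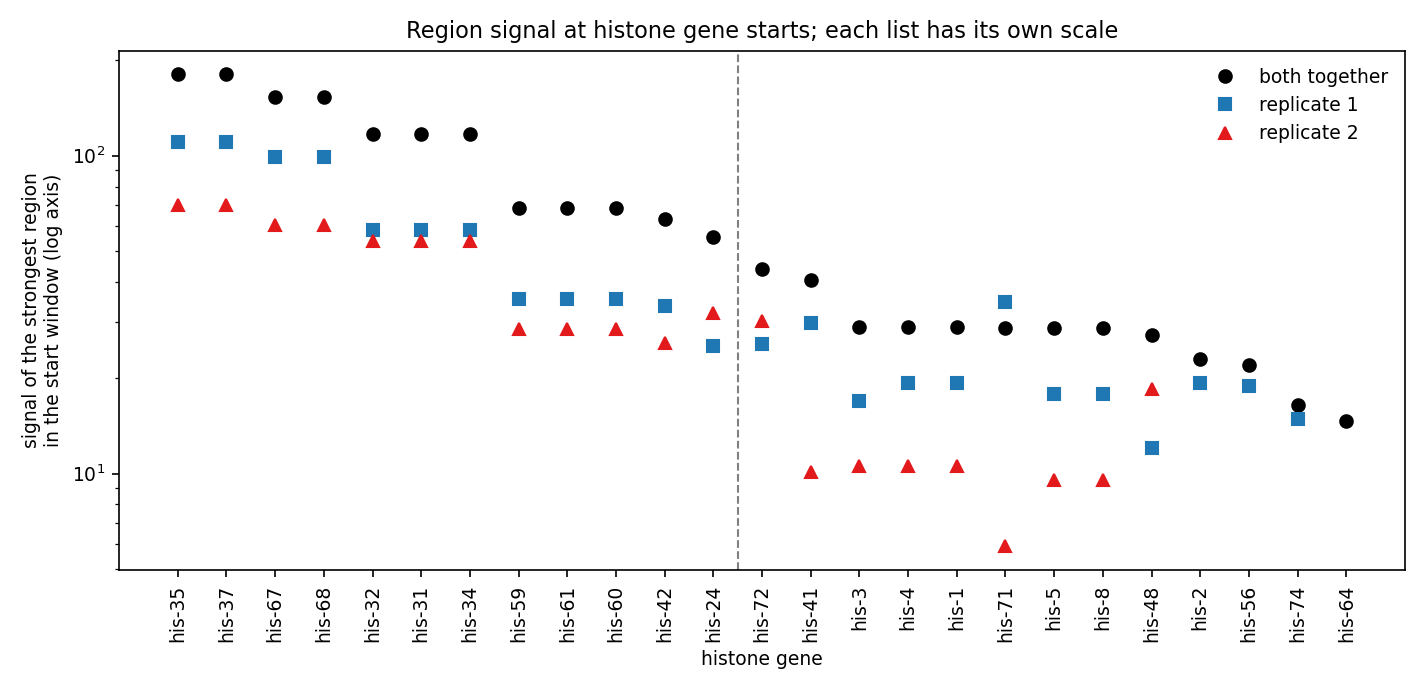
Signal of the strongest region in the start window (vertical log axis, the submitters' own score) for each of the 25 histone genes with a pooled summit (horizontal axis), in the pooled list, replicate 1 and replicate 2; genes left of the dashed line had an optimal summit. Left of the line, genes that share a peak show the same values, and the pooled signal runs from 180.3 at his-35 and his-37 to 55.3 at his-24.

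The remaining pair, his-67 (H4) and his-68 (H2A) on chromosome I, differs from the usual pairing of H4 with H3. Its peak (I:9988900-9989089, 190 bp wide) had an optimal signal of 153.1 (rank 218). The signal was 99.3 in replicate 1 (rank 199) and 60.5 in replicate 2 (rank 245), and the summit stood between the starts, 139 bp upstream of his-68 and 230 bp upstream of his-67. Another start, of the protein-coding gene alg-5, was 809 bp away. In replicate 2 the summit shifted by 46 bp, which brought it to 185 bp from his-68 and 184 bp from his-67.

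By the number of histone windows they fell in, 2 peaks were in 1 window (his-24 and his-42), 2 were in 2 windows and 2 were in 3 windows. All 4 shared peaks had a summit between starts that point apart. At 3 of them these starts were neighbours at most 500 bp apart. At the other, between his-35 and his-37, the H2B gene his-41 and the protein-coding gene C50F4.6 stood in between. All 6 summits were upstream of every histone start they were counted for. Of these summits 5 were outside annotated genes. With only 500 bp upstream allowed, 9 genes kept an optimal summit, and the 3 lost were his-34, his-35 and his-61, the distant members of the shared peaks.

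Many histone genes encode the same protein, so the protein sequence cannot tell which gene had a peak. All 16 H4 genes encode 1 protein of 103 residues, yet 4 had an optimal summit, 8 had a pooled summit and 8 had none. All 15 H3 genes encode 1 protein of 136 residues, and 3 had an optimal and 4 a pooled summit. Of the 15 genes for the common H2A protein of 127 residues, 2 (his-61 and his-68) had an optimal summit. H2B is encoded in 4 forms, by 6, 5, 4 and 1 genes, and the only H2B gene with an optimal summit was his-34, through the peak 1859 bp from its start. The H3.3-type protein of his-71 was identical to H3 at 128 of 136 residues. his-73 and his-39 encode short proteins of 46 and 67 residues with a histone domain, and neither had an optimal or pooled summit.

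In the long ranked lists the share of histone genes with a summit was below that of all genes. A pooled summit lay in the windows of 25 of 72 (34.7%), where 54.9% of all protein-coding genes had one. Replicate 1 marked 29 (40.3%) against 55.6%, and replicate 2 marked 27 (37.5%) against 56.5%. Both replicate lists marked 22 of the genes, replicate 1 alone marked 7, replicate 2 alone marked 5, and 37 had no summit in any of the 4 lists. The same overlap counts over all genes are not given here, so these are only a description. A gene marked in both lists need not have had the same region in each. So the share of histone genes with a summit was above that of all genes in the optimal list and below it in the longer lists. The optimal share rests on 6 peaks, and with the nearest start only it was 8.33% against 5.14%.

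A measure of repeated sequence moved with this count. Each position of a start window was called unique where the 36-base stretch beginning there occurred once in the genome on either strand. The median histone window was 51.7% unique, with quartiles of 1.46% and 85.1%, whereas the median over all protein-coding genes was 100%, with a lower quartile of 96.0%. Of the histone windows 34 (47.2%) were less than 50% unique, against 3.00% of all genes. The types differed, with a median of 54.8% for H4, 47.9% for H2B, 42.9% for H3, 5.92% for H2A and 99.9% for H3.3. Most of the repetition was within the family: 44.9% of the 106090 positions in histone windows were repeated, and 93.9% of these had another copy in a histone window. No source used here states the read length or the treatment of reads that match several places, so unbound sequence and sequence to which no reads were assigned cannot be told apart.

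Genes with an optimal summit had a median window uniqueness of 92.1% (41.6% to 100%), the 13 with only a weaker pooled summit 76.8%, and the 37 with no summit in any list 1.46%. Within classes of window the histone genes were as follows. In windows less than 50% unique, 1 of 34 (2.94%) had an optimal summit, where 2.17% of all such genes did, and the same gene, his-34, was the only 1 with a pooled summit, where 8.83% did. In windows from 50% to 90%, 4 of 25 (16%) had an optimal summit against 5.57%, and 13 (52.0%) a pooled summit against 38.3%. In windows of 90% or more, 7 of 13 (53.8%) had an optimal summit against 8.9%, and 11 (84.6%) a pooled summit against 59.1%. Among windows of 50% or more, then, the histone share was above that of all genes of the same class in both lists. The 7 genes came from 5 peaks and are not independent of each other. Nor are the classes separate, because 1 peak can be counted in several. In the class from 50% to 90%, his-31, his-59 and his-61 had peaks that his-32 or his-60 brought into the highest class. Only his-42 had a peak not counted there, and the peak of his-34 was that of his-31 and his-32. Pooled summits were shared too: in the class from 50% to 90%, 1 was counted for his-8 and his-5, and 2 for his-1 to his-4. In that class the pooled summits of his-48 and his-64 lay in exons of other genes. That of his-56 was nearer to the start of F54E12.2.

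**Figure D2:**
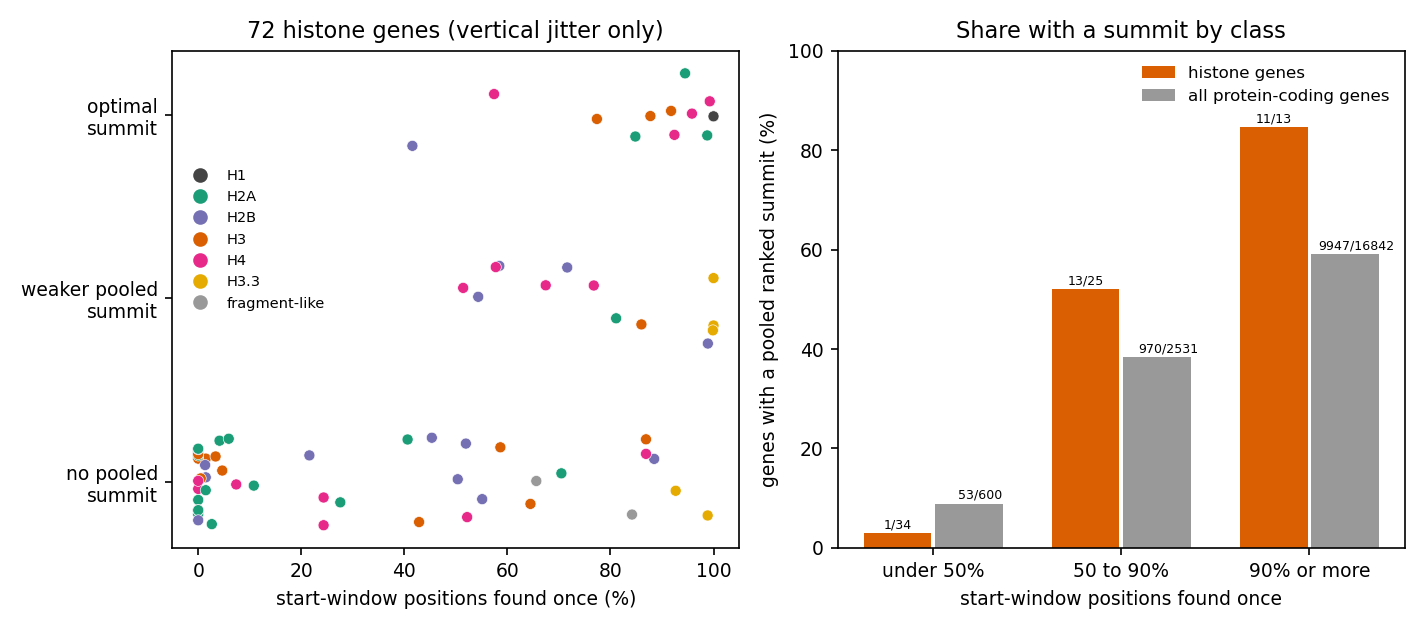
Left, each of the 72 histone genes by the unique share of its start window (horizontal axis, percent) and by whether it had an optimal, a weaker pooled or no pooled summit (vertical axis), coloured by histone type. Right, the share of genes with a pooled summit (percent) in 3 classes of window for histone genes and for all protein-coding genes, with 84.6% against 59.1% in the highest class and 2.94% against 8.83% in the lowest.

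By position, starts at most 10000 bp apart on a chromosome formed 19 groups, of which 5 were single genes and the others held 67 genes. Chromosomes V, IV and II held most genes, with 27, 22 and 14. An optimal summit lay in 6 groups and a pooled summit in 14. The largest group, 13 genes at chrII:13817760-13828697, was 7.05% unique, and no pooled region overlapped it. It lay in an empty stretch of 16957 bp that ended where the his-42 peak began, and apart from his-42 its genes had 1 summit in any list, a replicate 2 region of rank 26969 in the windows of the outermost pair, his-16 and his-15. The his-42 peak thus lay at the border of the group. Since the group was mostly repeated sequence, whether the pairs within it were bound cannot be told from these lists.

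On chromosome V, 2 groups had almost no unique sequence, the 6 genes at chrV:8847393-8854053 (0% unique) and the 8 genes at chrV:8889488-8898539 (1.08% unique). They stood in 1 empty stretch between pooled regions, chrV:8803456-8902465. It was 99010 bp long, and only 3 stretches of 28361 in the genome were as long, this one included, against a median of 1670 bp. The stretch as a whole was 12.6% unique, so the repeated sequence went well beyond the histone genes. A single region of replicate 2, rank 18770, lay in a window there, 842 bp upstream of the H3 gene his-17.

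Other groups with repeated sequence lay on chromosome IV. The 4 genes his-47, his-48, his-46 and his-45 were 3.61% unique and the 4 genes his-55 to his-58 were 23.95% unique, and neither group had an optimal summit. Uniqueness alone did not go with a peak: his-4, his-3, his-2 and his-1 (chrV:16040144-16042831) were 69.8% unique and had pooled summits but no optimal summit, the nearest being 273756 bp away. The X-linked pair his-38 and his-40, at 71.7% unique, and the H3.3-type genes his-69 and his-70 on chromosome III, at 98.4%, had no pooled summit at all.

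**Figure D3:**
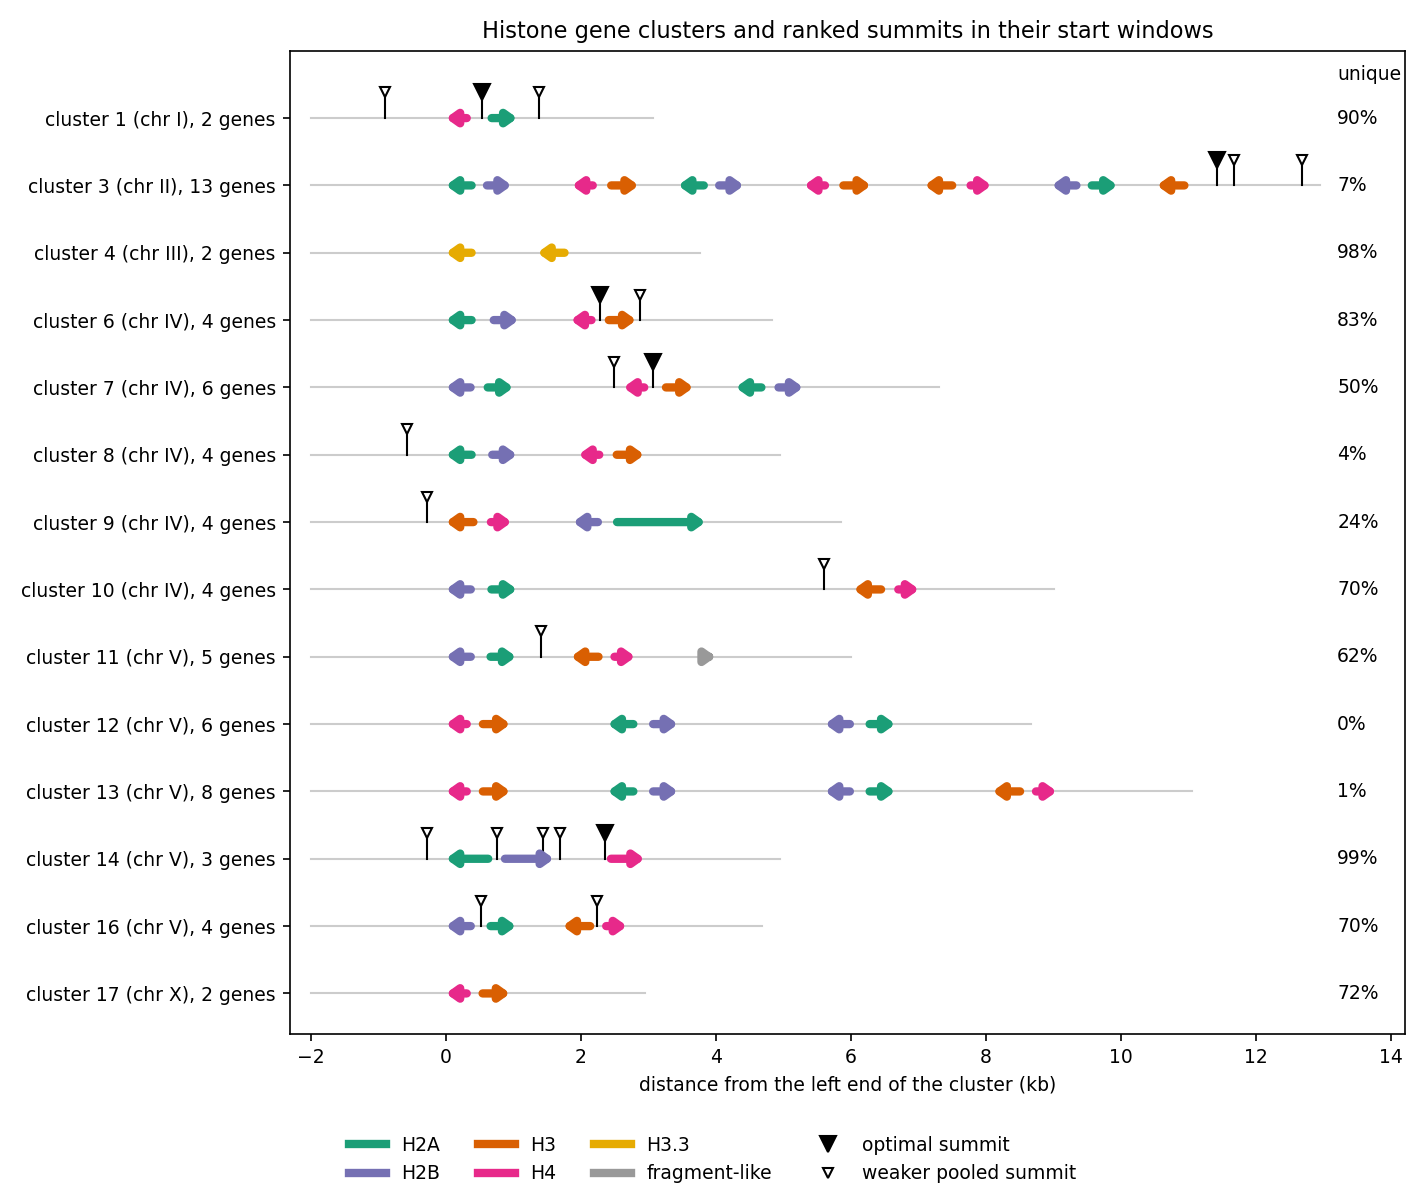
The 14 groups of 2 or more histone genes, drawn to scale from the left end of each group (horizontal axis, kb), with arrows for the genes coloured by type, filled triangles for optimal and open triangles for weaker pooled summits in the start windows, and the unique share of each group at the right. The group of 13 genes has its optimal summit beyond its right end, and the groups with 0% and 1% unique sequence have no summit.

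Starts at most 500 bp apart that point away from each other formed 31 histone pairs, with 227 to 368 bp between them (median 258 bp). There were 16 H2A and H2B pairs, 14 H3 and H4 pairs and the single H2A and H4 pair. An optimal summit lay between the starts of 3 pairs, where 19.1% of 886 other divergent pairs had one, and a pooled summit between those of 6, where 39.1% did. The pairs fell into separate classes by sequence. In 20 pairs the stretch between the starts was 16% unique or less, and none of the 4 lists had a summit there. Other divergent pairs under 50% unique were few, and 4.76% of the 21 had a pooled summit. The 11 remaining histone pairs were 79.5% to 100% unique: 3 had an optimal summit (19.8% of 850 other such pairs did) and 6 a pooled summit (40.5% did).

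Of these 11 pairs, 6 were of H3 and H4, with 2 optimal and 3 pooled summits, and 4 were of H2A and H2B, with 0 optimal and 2 pooled summits. The last was the H2A and H4 pair, with both. The pairs with a pooled summit below the optimal cutoff were his-35 with his-41, his-4 with his-3, and his-2 with his-1. Replicate 1 had a summit between the starts of 8 of the 11, where 40.2% of the other such pairs had one, and replicate 2 between those of 6, where 37.9% did. Among the 31 pairs, 16 had a stretch identical, base for base, to that of another pair, read on the same or the opposite strand. An example is the 292 bp shared by 4 H2B and H2A pairs on chromosome V.

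For comparison with the bound stretches, 3 stretches without an optimal summit are shown, from RefSeq, WBcel235, plus strand, with capitals for the same motifs. The stretch between his-14 (H4) and his-13 (H3), 272 bp at chrII:13819938-13820209, is 0% unique. It is identical to that of his-10 with his-9 and, on the opposite strand, to that of his-25 with his-26. The stretch between his-38 (H4) and his-40 (H3), 234 bp at chrX:7309876-7310109, is 100% unique and had no summit in any list. The stretch between his-2 (H3) and his-1 (H4), 236 bp at chrV:16042284-16042519, is 100% unique and had a weak pooled summit.
his-14 to his-13: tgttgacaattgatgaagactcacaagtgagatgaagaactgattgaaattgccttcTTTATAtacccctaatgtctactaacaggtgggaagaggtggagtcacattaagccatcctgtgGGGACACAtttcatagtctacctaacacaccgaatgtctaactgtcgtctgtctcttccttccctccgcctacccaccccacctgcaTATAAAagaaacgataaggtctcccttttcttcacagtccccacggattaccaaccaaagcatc
his-38 to his-40: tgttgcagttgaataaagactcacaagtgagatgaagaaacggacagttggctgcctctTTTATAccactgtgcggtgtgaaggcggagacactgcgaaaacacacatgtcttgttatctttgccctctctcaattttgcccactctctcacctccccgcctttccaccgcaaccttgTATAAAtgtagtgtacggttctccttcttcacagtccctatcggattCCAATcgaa
his-2 to his-1: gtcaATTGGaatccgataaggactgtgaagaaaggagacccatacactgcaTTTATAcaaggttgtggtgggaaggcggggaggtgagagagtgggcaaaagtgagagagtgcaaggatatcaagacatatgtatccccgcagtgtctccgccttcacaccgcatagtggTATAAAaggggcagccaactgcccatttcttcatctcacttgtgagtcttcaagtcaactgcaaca

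Neither Hox-type motif was found within 100 bp of the 6 summits. TGATNNAT, a composite form bound by Hox and Pbx-type proteins, had a match at 0 of 6 against 17.0% of all optimal peaks, and TAATTA, a homeodomain core, at 0 of 6 against 7.80%. Both were also rare in histone promoters, taken from 250 bp before to 50 bp after the start: 7 of 72 (9.72%) held TGATNNAT against 23.7% of all protein-coding genes, and 1 (1.39%) held TAATTA against 15.6%. TATAAA, the letters of a TATA box, was at 3 of the 6 summits (15.9% of all peaks) and in 65.3% of histone promoters (38.01% of all). CCAAT was at 2 summits (30.8%) and in 54.2% of histone promoters (45.7%). A match is a string of letters and not a shown site, and its absence says nothing of the factor.

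The 8 letters GGGACACA, or TGTGTCCC on the other strand, were picked after the sequences above had been read, so their counts are a description. They were within 100 bp of 5 of the 6 histone summits, all but that of his-42, and of 0.806% of all optimal peaks. From summit to the middle of the letters it was 2.5 bp at the his-67 and his-68 peak, 6.5 bp at his-24, 8.5 bp at his-60 and his-59, 12.5 bp at his-37 and 72.5 bp at his-31 and his-32. Among promoters, 43 of 72 histone genes (59.7%) held the letters against 0.621% of all protein-coding genes. They were in the stretch between the starts of 20 of the 31 histone pairs, 9 of H3 and H4, 10 of H2A and H2B and the H2A and H4 pair, against 0.226% of other divergent pairs. Histone promoters and pairs are not separate sequences, for these letters or for the other motifs. The 2 promoters of a pair overlap, and 16 of the 31 pairs have a stretch identical to that of another pair.

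Among the 11 unique pairs, all 3 optimal summits lay in the 6 pairs with the letters and 0 in the 5 without. A pooled summit lay in 4 of the 6 and in 2 of the 5 (his-35 with his-41, and his-2 with his-1). The letters were picked after reading sequences that included the bound stretches of his-60 with his-59 and of his-31 with his-32. The split was thus partly set by that choice, and with so few pairs these counts are only a description. The pair his-61 and his-62 held the letters in a stretch 100% unique and had no pooled or optimal summit between its starts, although both replicate lists had a weak one. The pair his-6 and his-5, 85.7% unique, also held them without a pooled or optimal summit, and had a summit in the replicate 1 list only. The run of 20 bases shared by the his-37 and his-24 peaks occurred at 5 places in the genome, and 3 of these lay in an optimal peak: those of his-37 and his-24 and 1 on chromosome II, 2278 bp from the nearest protein-coding start, F18A11.5.

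**Figure D4:**
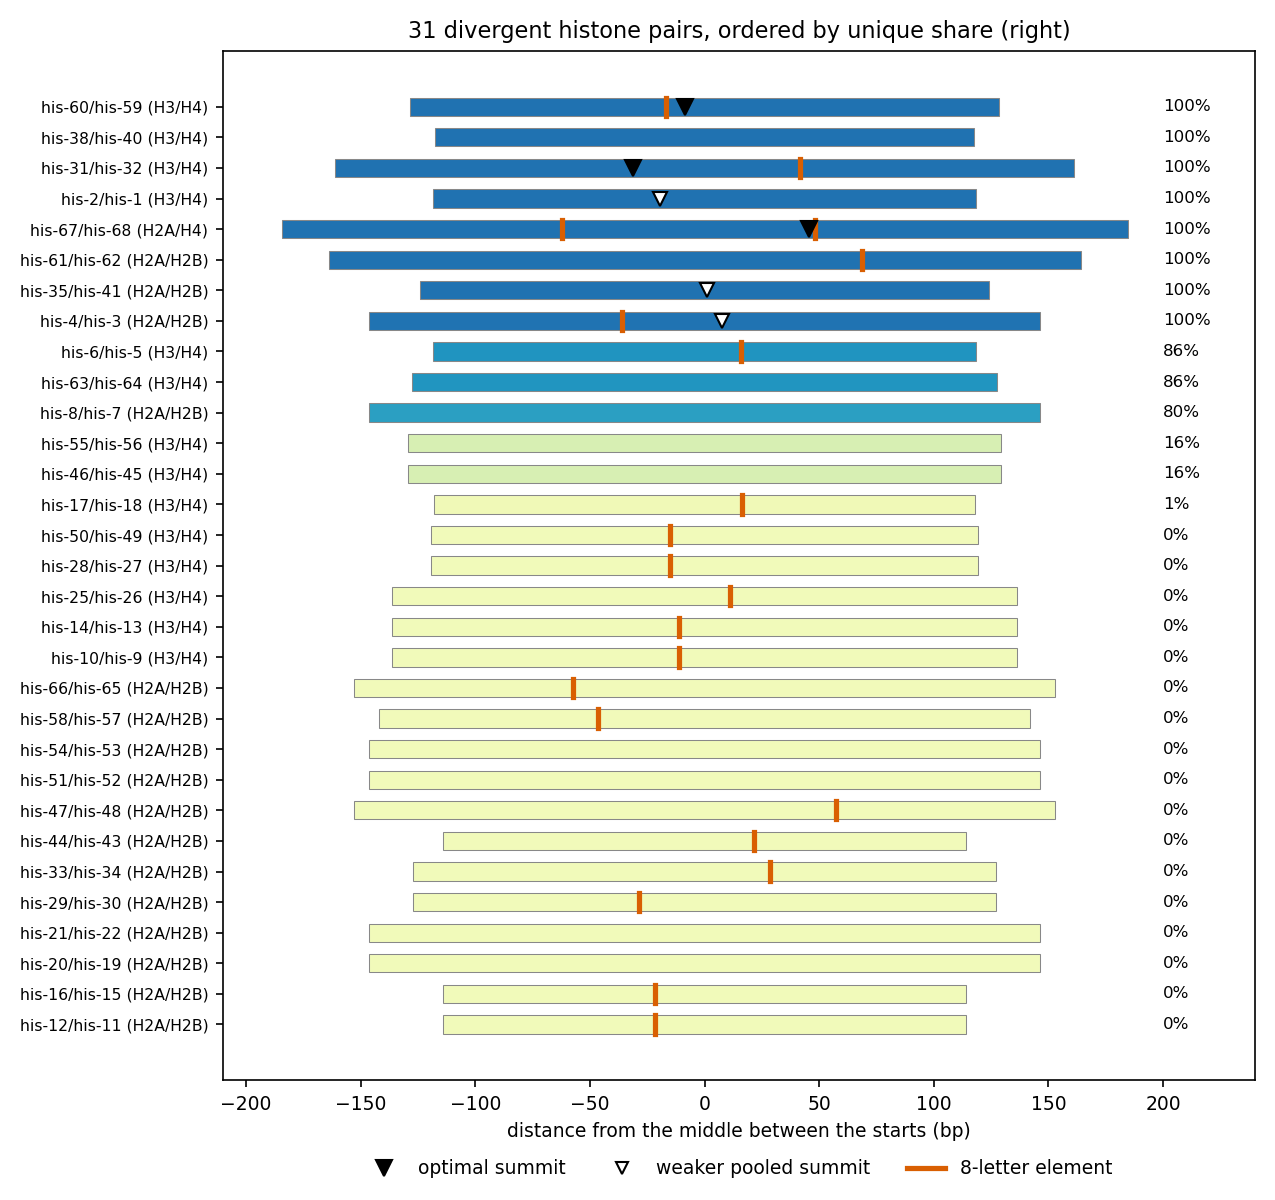
The 31 divergent histone pairs, each drawn as a bar from start to start around its middle (horizontal axis, bp), ordered and shaded by the unique share given at the right, with optimal summits (filled triangles), weaker pooled summits (open triangles) and the 8 letters described in the text (orange lines). All 6 pooled summits lie in the 11 bars that are at least 79.5% unique.

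Below the optimal cutoff, 13 further histone genes had a pooled summit in their windows. The strongest was at his-72, an H3.3 gene, with a pooled signal of 44.0 (rank 1835) 190 bp upstream of its start. That region had a signal of 30.2 in replicate 2 (rank 959) and 16.4 in replicate 1 (rank 8307), so it was among the 1488 strongest regions of replicate 2 alone. The proteasome gene rpt-6 and Y75B8A.33 had the same summit in their windows.

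At his-71, another H3.3 gene, the order of the replicates was opposite. Its pooled summit, 361 bp upstream, had a signal of 28.6 (rank 4695), with 34.6 in replicate 1 (rank 1362) and 5.91 in replicate 2 (rank 29636). Thus neither H3.3 gene was among the strongest 1488 regions of both replicates. The other H3.3-type genes had less: his-74 had a pooled region of rank 20443 inside its intron, his-69 had a replicate 1 region of rank 23100, and his-70 had none.

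The H2B gene his-41 had a pooled summit of signal 40.7 (rank 2094) 1148 bp upstream, which was 162 bp from the start of mdf-1 and thus nearer to that gene. Between his-41 and his-35 there was a separate weak summit, rank 24045. In the group of his-1 to his-4, 1 summit lay between his-4 and his-3 (signal 28.9, rank 4603) and 1 between his-2 and his-1 (signal 23.0, rank 8863). The former was in both replicate lists (ranks 7487 and 10086), and the latter was in replicate 1 only (rank 5217). A summit of rank 4703, between the pairs and over 1000 bp from either start, was in the windows of his-8 and his-5, and that at his-48 (rank 5472) lay in an exon of the neighbouring gene edg-1.

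Over all lists, 30 pooled regions had a summit in a histone window. Of these, 16 were overlapped by a region of both replicate lists and 3 by neither. Such overlaps over all pooled regions are not given here. The 16 and 3 are therefore only a description and do not show how reproducible histone regions were beside others. Only 3 of the 30 summits lay inside a histone gene, in introns of his-72 and his-74 and in his-41. The windows reach farther upstream than downstream and the genes are short, so this count is a description of the windows used.

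Genes that work with histones were read from a list of 24 variants, linker histones, chaperones and a stem-loop binding protein. Of these, 4 (16.7%) had an optimal summit, from 3 peaks, against 8.28% of all protein-coding genes. A pooled summit was in 20 of the 24 windows, against 54.9% of all genes. htz-1, which encodes the variant H2A.Z, had an optimal signal of 148.7 (rank 234) 305 bp upstream, with 73.9 in replicate 1 and 71.5 in replicate 2, and shared it with wapl-1 and chat-1. lin-53 and rba-1, neighbouring genes for RbAp46/48-type histone-binding proteins, shared 1 peak of signal 247.2 (rank 64) with nra-2, at 243 bp and 1896 bp. nasp-2, for a NASP-type chaperone, had a signal of 97.2 (rank 538) 1002 bp upstream, shared with C50B6.3. cdl-1, for the protein that binds the stem-loop of histone messages, was below the cutoff with a pooled rank of 2495 and no summit in replicate 2, and chaf-1 and nasp-1 had no summit in any list.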

How the data were processed

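LIN-39 ChIP-seq was done in 2 biological replicates of L1 larvae. Per the submitters' processing notes, the region lists were derived from replicate and control alignments; the control, alignments and tracks were not analysed here. No source used here names the aligner, the peak caller, the read length or the reproducibility cutoff. On ce11 the lists are headerless narrowPeak tables, and the signal the authors deposited for each region was used only to rank and describe regions within a list. Lists on ce10 were not used.

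Summits were placed in start windows of 19973 protein-coding genes (Ensembl release 115). Symbols, products and sequences came from RefSeq by WormBase identifier. Protein identity was counted on translated coding sequences. The tools were scipy 1.17.1, pandas 2.3.3 and numpy 2.4.6 under Python 3.11.15. The assignment of summits was tested on simulated data. There is 1 group, so no test between samples was made.

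Members, gene lists and motifs were chosen with earlier results of these data known. The rule for names took every histone gene with an optimal summit, the 10 others with the strongest pooled summit, his-24, his-71 and his-72, genes sharing an optimal summit, and partner genes with one; further names were added after their values were seen.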

Additional observations from a re-analysis of the deposited data

How the results depend on the processing

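The 12 histone genes with an optimal summit became 6 with the nearest start only and 7 with the stronger 744 optimal peaks, and the 6 peaks became 3 with those 744. All genes with an optimal summit changed from 1653 to 2515 with 5000 bp upstream, 1026 with the nearest start only and 930 with the stronger 744 peaks. The 25 histone genes with a pooled summit became 16 with the nearest start only. The mean unique share of the 72 windows was 45.9% with stretches of 36 bases, 42.8% with 25 and 48.4% with 50. TATAAA was at 1 of 6 summits within 50 bp (6.52% of all optimal peaks) and CCAAT at 5 of 6 within 200 bp (54.4%). The other 43 values stayed within 1.5 times the main value, among them 9 genes with 1000 bp upstream and 15 with 5000 bp. Taking the 1488 strongest regions of 1 replicate in place of the optimal list gave 12 to 13 histone genes, 6 to 7 peaks, 4 shared peaks, 1589 to 1603 genes in all and, in the full lists, 27 to 29 histone genes. Without replicate 2, his-24 was lost and his-71 gained, and without replicate 1, his-72 was gained. No paired analysis was possible because there is 1 group. Depth is unknown, and how far the lists depend on reads placed in repeated sequence was not tested.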

Other observations

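The 8 letters GGGACACA were within 100 bp of 12 optimal summits, 7 of them outside histone windows. One was the strongest peak of the whole list, 745 bp from the start of nspc-17 (signal 607.5, rank 1), and another was 201 bp from the start of plrg-1 (signal 133.3, rank 294). The other 5 had signals from 53.5 to 70.5 and lay nearest to ZK470.4, xpa-1, T28A11.16, Y53G8AM.7 and F18A11.5, at 195 bp to 5187 bp from the start.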
